A study of Ovis aries with 115 samples.

Results

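Cervical gene expression of Fur and Suffolk ewes (Ovis aries) was compared in the follicular phase of natural, unsynchronised cycles. The libraries were chosen by their labels alone: cycle natural, phase follicular and breed FUR or Suffolk, which gave 10 Fur and 8 Suffolk libraries, 18 of the 115 in the series. The series holds RNA-sequencing of post mortem cervix from 4 breeds, also at the follicular and luteal phases of a synchronised (hormone-timed) cycle. A further library carries a title of Suffolk at the natural follicular phase but labels of another cycle and phase, and was left out. The Fur ewes were kept in Norway and the Suffolk ewes in Ireland, and these 2 differences between the groups, of breed and of country, cannot be told apart. Fur stands for a breed with high, and Suffolk, the study's reference breed, for one with low pregnancy rates after cervical insemination with frozen-thawed semen. The labels name no hormone treatment for these 18 ewes, and their age is not given in the sources used here. Each library was taken as 1 ewe, as the labels number them, and p-values measure the spread between these libraries.

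The cervix is a fibromuscular tube lined by a mucus-secreting epithelium. Around oestrus, under oestrogen, its glands secrete mucus and its collagen-rich stroma softens, and semen placed at its outer opening has to cross this barrier. Epithelial cells and resident leukocytes there also express antiviral genes that interferons induce, which is part of the mucosal defence of the reproductive tract.

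The libraries held 13410148 to 22068609 (median 19472530) counts in Fur and 13406420 to 20773445 (median 15934767) in Suffolk. Values are CPM, read counts scaled to a common library size by TMM, and differences are log2 fold changes of Fur minus Suffolk with their standard errors (SE) from edgeR's quasi-likelihood test. A differentially expressed gene (DEG) had an adjusted p under 0.05 (Benjamini-Hochberg over all 14509 genes tested) and a fold change above 1.5. Gene symbols were known for 1309 of the genes tested. Most of these symbols come from genes that the study found higher in Suffolk than in Fur at the synchronised phase. Counts of named genes therefore lean towards lower expression in Fur by that choice and are not independent evidence of direction.

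A total of 1358 genes (9.36%) were DEGs, of which 688 (4.74%) had higher and 670 (4.62%) lower expression in Fur. Among the named genes, 18 were higher (1.38%) and 251 lower (19.2%), with a median log2 fold change of -0.37 against -0.02 over all genes tested. The breed difference held 22.66% of the variance of log2 CPM, against a median of 5.18% over all 43758 divisions of the 18 ewes into 10 and 8 (one-sided exact permutation p = 0.000137, where the smallest possible is 2.29e-05). In 81 genes (0.558%) the groups did not overlap, with every Fur ewe above every Suffolk ewe in 34 (0.234%) and below in 47 (0.324%). Of the DEGs, 131 differed by more than 4-fold, 85 of them higher in Fur.

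The Suffolk ewes were less alike than the Fur ewes. Of 6 smooth muscle markers, ACTG2 and DES had an identifier, and their summed CPM ranged from 1640 to 7615 (median 4953) in Fur and from 66.6 to 6034 (median 475) in Suffolk. Suffolk replicates 6 and 7 lay at Fur levels, replicate 8 just inside the Fur range, replicate 2 at 830 and replicates 3, 4, 5 and 9 between 66.6 and 120.3 CPM. Summed epithelial markers (9 of 12 with an identifier) ran from 1509 to 2950 CPM in Fur and from 1772 to 8241 in Suffolk, with Suffolk replicates 2, 3 and 9 the highest at 6014, 6578 and 8241. Reads of both marker sets were thus detected in every ewe. Whether each sample held the muscle and the epithelial layer to a like extent was not tested. In bulk tissue, fewer cells of a type and less RNA per cell cannot be told apart. When the average of ACTG2 and DES (log2 CPM) was added to the fit as a smooth muscle term, 26 genes were DEGs, 17 of them among the 1358. Leaving out single Suffolk ewes moved the count to 2136 (without replicate 6), 883 (replicate 2), 838 (replicate 3) and 829 (replicate 9).

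**Figure D1:**
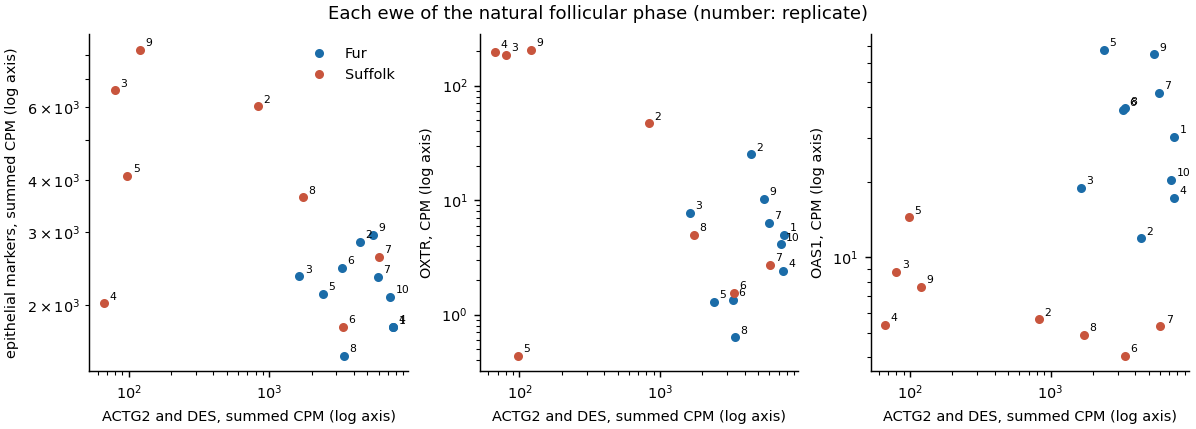
Each point is 1 of the 18 ewes of the natural follicular phase, numbered by replicate, with the summed CPM of ACTG2 and DES on the x axis and the summed CPM of 9 epithelial markers, the CPM of OXTR or the CPM of OAS1 on the y axis (all axes log). The 10 Fur ewes lie between 1640 and 7615 CPM of the muscle markers, while the Suffolk ewes spread from 66.6 to 6034. For OAS1, 9 of 10 Fur ewes lie above every Suffolk ewe. Only Suffolk ewes lie below 1640 CPM of the muscle markers.

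Interferon response genes were the largest group among the 18 named genes with higher expression in Fur. Of 25 tested identifiers on the interferon list, 7 (28%) were higher in Fur, 1 was lower and 17 did not pass, with a median of 0.14. Over all genes tested 4.74% were higher and 4.62% lower, and among the named genes 1.38% and 19.2%. The counts of the other lists are read beside the same shares. OAS1, OAS2, MX1, ISG15, DHX58 and ZBP1 were among the 7 with higher expression. OAS1 and OAS2 are synthetases that make a short oligoadenylate messenger on sensing double-stranded RNA, a step of the antiviral response.

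OAS1 (ENSOARG00000002881) had 11.9 CPM in the lowest Fur ewe, 34.6 at the median and 67.7 in the highest, against 4.04, 5.51 and 14.5 in Suffolk. Of the Fur ewes, 9 of 10 lay above every Suffolk ewe, and Suffolk replicate 5 was the 1 Suffolk ewe inside the Fur range. The difference was 2.34 on the log2 scale, or 5.05-fold (SE 0.35, edgeR adjusted p = 0.00176). OAS2 ran from 67.2 to 264 CPM (median 109) in Fur and from 32.0 to 77.2 (median 44.5) in Suffolk, again with 9 Fur ewes above all Suffolk ewes (log2 fold change 1.47, SE 0.25, adjusted p = 0.00292).

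MX1, a dynamin-like GTPase that blocks viral replication, ran from 125 to 499 CPM (median 179) in Fur and from 49.4 to 127 (median 91.0) in Suffolk. The groups overlapped by 1 ewe of each breed, and Fur replicate 9 stood above the other Fur ewes. Its log2 fold change was 1.34 (SE 0.26, adjusted p = 0.00421). ISG15, a ubiquitin-like modifier, had 4.15 to 34.4 CPM (median 8.50) in Fur and 1.24 to 4.85 (median 2.89) in Suffolk, a log2 fold change of 2.06 (SE 0.44, adjusted p = 0.00642). Fur replicates 5 and 9 were the highest for ISG15, at 31.9 and 34.4 CPM, while 8 of 10 Fur ewes lay above all Suffolk ewes.

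The nucleic acid sensors DHX58 (log2 fold change 0.64, adjusted p = 0.0409) and ZBP1 (0.997, adjusted p = 0.0482) were DEGs close to the threshold. LY6E, an interferon-inducible surface protein, was lower in Fur (-1.71, SE 0.47, adjusted p = 0.0195). Its call was lost without Suffolk replicate 3 or 9 and with the smooth muscle term (-0.21, adjusted p = 0.867). ZC3HAV1, the zinc finger antiviral protein, had a log2 fold change of 0.25 and did not pass (adjusted p = 0.0584). With the smooth muscle term in the fit, 3 genes of the list were DEGs higher in Fur. Among them were OAS1 at 2.99 (adjusted p = 0.0267) and OAS2 at 1.84 (adjusted p = 0.0495). MX1 (1.78, adjusted p = 0.0558) and ISG15 (2.43, adjusted p = 0.0822) did not pass in that fit. In a fit of all 4 breeds, 4 of the list were higher in Fur, and likewise 4 without Suffolk replicate 7, while the other fits without 1 ewe gave 5 to 8. The summed lymphocyte markers were 10.5 to 27.4 CPM in Fur and 13.9 to 24.7 in Suffolk, and myeloid markers 14.2 to 41.8 and 11.5 to 51.6.

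**Figure D2:**
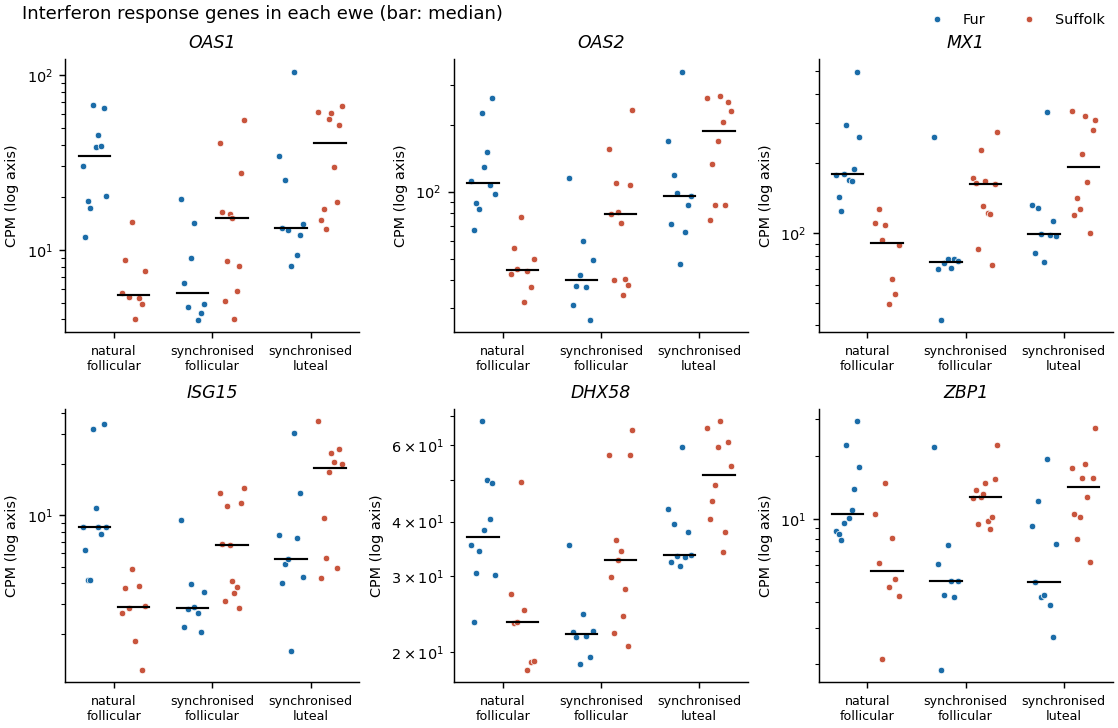
CPM of 6 interferon response genes in each Fur (blue) and Suffolk (red) ewe in the natural follicular, synchronised follicular and synchronised luteal states, on log axes, with TMM scaling within each state and a bar at each median. At the natural phase the Fur median is above the Suffolk median for all 6 genes, as in OAS1 with 34.6 against 5.51, and at the synchronised follicular phase below it, as in OAS1 with 5.69 against 15.2.

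The breed difference of these genes pointed the other way at the synchronised follicular phase (8 Fur and 11 Suffolk ewes, none of them shared with the natural phase). There, the interferon list held 0 DEGs higher and 14 lower in Fur, with a median of -0.67, beside 7.26% higher and 5.87% lower over the same 14509 genes. Of the 1309 named genes tested, 14 were higher and 763 lower at that phase, also with a median of -0.67. The symbols of the listed genes come largely from the study's choice of genes lower in Fur at that phase, so the synchronised counts describe that choice. OAS1 was 3.98 to 19.6 CPM (median 5.69) in synchronised Fur and 4.02 to 55.6 (median 15.2) in synchronised Suffolk ewes, a log2 fold change of -1.14 (adjusted p = 0.0869). ISG15 changed from 2.06 at the natural phase to -1.01 (adjusted p = 0.0469) at the synchronised phase. MX1 had medians of 75.0 in Fur and 163 in Suffolk (log2 fold change -0.73, adjusted p = 0.0692), and OAS2 of 39.98 and 79.7 (-0.85, adjusted p = 0.0852). OAS1, MX1 and OAS2 thus did not pass at the synchronised phase.

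The test of the difference itself, a breed by cycle interaction over 37 ewes, called 260 of 14988 genes (1.73%) with a larger value of Fur minus Suffolk at the natural phase and 732 (4.88%) with a smaller one. Of the 26 interferon identifiers tested, 12 were called, with interaction terms between 0.51 and 3.49. The synchronised libraries on which most symbols were chosen also enter this test, and choosing genes lower in Fur there favours a larger value at the natural phase, so for the named genes the direction of the terms is not independent evidence. OAS1 had the term 3.49 (SE 0.64, edgeR adjusted p = 0.00375), ISG15 3.09 (adjusted p = 0.00457), OAS2 2.33 (adjusted p = 0.00559) and MX1 2.08 (adjusted p = 0.00527). ZC3HAV1 (0.82, adjusted p = 0.00338) was also called, and so were XAF1, RNF213, IRF2, RTP4, DHX58 and ZBP1. The count was again 12 with the smooth muscle term in the fit, and 12 to 15 without single ewes. LY6E, with nearly the same value at both phases, had a term of -0.02.

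Genes of smooth muscle and calmodulin signalling were higher in Fur at the median, but few passed the test. Of 9 smooth muscle genes tested, 2 were higher (22.2%, beside 4.74% of all genes and 1.38% of the named genes) and 0 lower. Without single ewes 0 to 4 were higher, the 4 without Suffolk replicate 7. The list had a median of 1.62 against 3.93 at the synchronised phase. ACTG2, the gamma actin of visceral smooth muscle, had 742 CPM in the lowest Fur ewe, 2161 at the median and 3977 in the highest, against 19.9, 251 and 1878 in Suffolk. Suffolk replicates 6 and 7 lay within the Fur range and the other 6 below every Fur ewe. Its log2 fold change was 2.15 (SE 0.75, adjusted p = 0.0493), a call that was lost without 15 of the 18 ewes in turn. ASB2, a ubiquitin ligase subunit that targets filamins in muscle, ran from 10.01 to 45.6 CPM in Fur and from 0.204 to 25.3 in Suffolk (log2 fold change 1.99, SE 0.68, adjusted p = 0.0460), and its call was lost in 14 of those fits.

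Of the 9 smooth muscle genes, 7 had a positive and 2 a negative log2 fold change, and at the synchronised phase 6 were higher and 2 lower. PCP4, ACTC1 and DES are given as values, and the rest of this list is not shown gene by gene. PCP4, a small regulator of calmodulin, had a median of 25.2 CPM in Fur and 1.497 in Suffolk (log2 fold change 2.32, SE 0.83, adjusted p = 0.0553). Suffolk replicate 7 reached 25.8 CPM, and 3 Suffolk libraries held 3 or fewer PCP4 counts. ACTC1, the cardiac actin gene, had 1.62 (SE 0.74, adjusted p = 0.125), and DES, the intermediate filament of muscle, 1.38 (SE 0.82, adjusted p = 0.232). PNCK, a calcium and calmodulin dependent kinase that is not on this list, was a DEG with 0.957 to 8.47 CPM in Fur and 0 to 4.16 in Suffolk, where 5 of 8 libraries held 3 or fewer counts (2.41, SE 0.79, adjusted p = 0.0392), and its call was lost without 11 of the 18 ewes in turn.

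PI16, a peptidase inhibitor gene that marks a class of fibroblasts, ran from 16.1 to 52.0 CPM (median 22.3) in Fur and from 0.476 to 22.7 (median 2.29) in Suffolk. Suffolk replicates 2 and 6 lay at Fur levels, with 22.7 and 21.0 CPM, and the other 6 below every Fur ewe. The log2 fold change was 1.95 (SE 0.61, adjusted p = 0.0319). The summed fibroblast markers (4 of 6, PI16 among them) did not follow it, at 909 to 1636 CPM in Fur and 861 to 2246 in Suffolk. None of ASB2, PNCK and PI16 passed with the smooth muscle term in the fit, the last having 0.62 (adjusted p = 0.674).

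The differences of PCP4 and PI16 were smaller at the natural than at the synchronised phase. PCP4 had 6.45 there and an interaction term of -4.12 (adjusted p = 0.0131), and PI16 4.61 and -2.65 (adjusted p = 0.0348). The call of PCP4 was lost without Suffolk replicate 7 of the natural phase (adjusted p = 0.0594), and that of PI16 without 7 of the 37 ewes in turn and with the smooth muscle term (-1.96, adjusted p = 0.124). In synchronised Suffolk ewes PCP4 did not exceed 0.946 CPM, with 3 or fewer counts in 5 of the 11 libraries, and ACTG2 did not exceed 259. For PNCK all 11 of those libraries held 3 or fewer counts, so no fold is given there. The terms of ACTG2 (-1.93, adjusted p = 0.162) and ASB2 (-1.79, adjusted p = 0.147) did not pass.

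**Figure D3:**
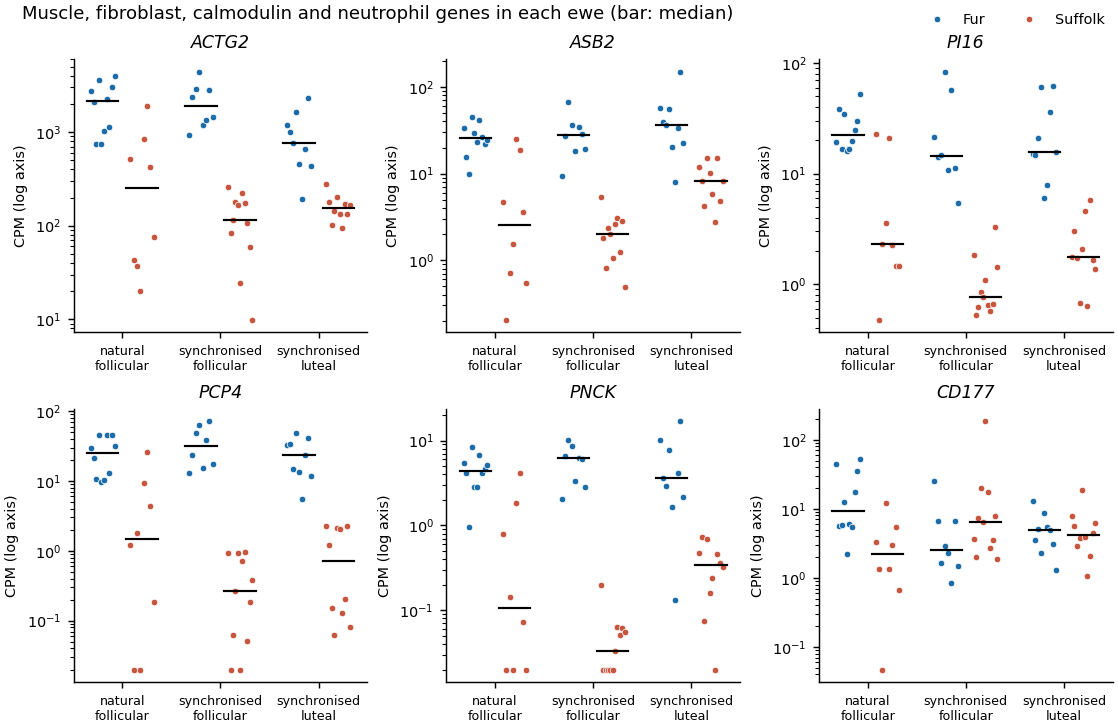
CPM of ACTG2, ASB2, PI16, PCP4, PNCK and CD177 in each Fur (blue) and Suffolk (red) ewe in 3 states, on log axes with a bar at each median and values under 0.02 drawn at 0.02. Single Suffolk ewes of the natural phase reach the Fur range, such as 1878 CPM for ACTG2, while the highest synchronised follicular Suffolk ewe has 259.

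BRINP3, named as a neural protein induced by bone morphogenetic protein and retinoic acid, had the highest log2 fold change of the named DEGs. It ran from 0.147 to 15.5 CPM (median 3.17) in Fur and from 0 to 1.25 (median 0.246) in Suffolk, and 4 Suffolk libraries held 3 or fewer counts (3.21, SE 0.68, adjusted p = 0.00637). CLGN, a chaperone of the endoplasmic reticulum, was higher by 2.34 (SE 0.59, adjusted p = 0.0130), with 1.94 to 11.9 CPM in Fur and 0.141 to 5.51 in Suffolk. Both had values of the same sign at the synchronised phase, 2.605 and 2.75. UCP2, an uncoupling protein of the inner mitochondrial membrane, ran from 111 to 248 CPM in Fur and from 44.8 to 158 in Suffolk (0.85, SE 0.24, adjusted p = 0.0202), against -0.48 at the synchronised phase and with an interaction term of 1.33 (adjusted p = 0.0101). Further named genes with higher expression were ADH6 (1.51), BTBD11 (0.61) and VSIG10 (1.02). The unnamed ENSOARG00000020756 (18.7 to 42.5 against 8.82 to 16.4 CPM) and ENSOARG00000016552 (14.4 to 20.9 against 8.27 to 13.4 CPM) had every Fur ewe above every Suffolk ewe.

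The gene with the largest difference was COX-1 (ENSOARG00000000016), which the study's table names as the mitochondrially encoded subunit I of cytochrome c oxidase, the last enzyme of the respiratory chain. It had 27.5 CPM in the lowest Fur ewe, 30.01 at the median and 41.2 in the highest, against 1896, 2602 and 2788 in Suffolk. The 2 groups were far apart, with little spread within either. The CPM were 75.6-fold lower in Fur (log2 fold change -6.24, SE 0.14, adjusted p = 1.17e-16). The log2 fold change was -6.11 at the synchronised follicular and -5.92 at the luteal phase. Only uniquely mapped pairs were counted, and whether mapping to this gene differed between the breeds was not tested. MT-ND6, a complex I subunit that is also mitochondrially encoded, was lower by a log2 fold change of -0.88 (SE 0.23, adjusted p = 0.0143), with 4.71 to 11.3 CPM in Fur and 4.85 to 23.0 in Suffolk. These were the 2 mitochondrial genes with a symbol. PTGS1, the prostaglandin synthase whose enzyme is also called COX-1, is a separate gene, at 11.04 to 38.4 CPM in Fur and 5.27 to 48.0 in Suffolk (-0.70, SE 0.30, adjusted p = 0.1002).

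Among the other genes with lower expression, a few separated the breeds in every ewe. SOX17, a transcription factor of endothelium and of uterine epithelium, ran from 21.1 to 36.4 CPM (median 29.8) in Fur and from 44.6 to 65.7 (median 49.0) in Suffolk (-0.85, SE 0.11, adjusted p = 0.000600). EPN1, an adaptor of clathrin-coated pits, had 103 to 119 CPM in Fur and 134 to 205 in Suffolk (-0.62, SE 0.08, adjusted p = 0.000885). RIPK3, the kinase that starts necroptosis, had 34.9 to 54.4 CPM in Fur and 57.2 to 92.6 in Suffolk (-0.73, SE 0.11, adjusted p = 0.00176). In none of these 3 did any Fur ewe reach the lowest Suffolk ewe. With the smooth muscle term, SOX17 passed at -0.92 (adjusted p = 0.0234) and COX-1 at -6.30, but EPN1 (-0.41, adjusted p = 0.0645) and RIPK3 (-0.65, adjusted p = 0.0645) did not.

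The unnamed genes ENSOARG00000015666 (12.3 to 18.7 CPM in Fur, 22.6 to 39.95 in Suffolk) and ENSOARG00000000264 (3.39 to 5.48 against 7.12 to 16.7) also had every Fur ewe below every Suffolk ewe. ENSOARG00000016098 had a wider difference (-4.33, SE 0.75, adjusted p = 0.00292) with groups that overlapped, since the Fur ewes lay between 2.77 and 8.97 CPM, 6 of 8 Suffolk ewes above all of them, 1 within their range and 1, at 1.36 CPM, below all of them.

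**Figure D4:**
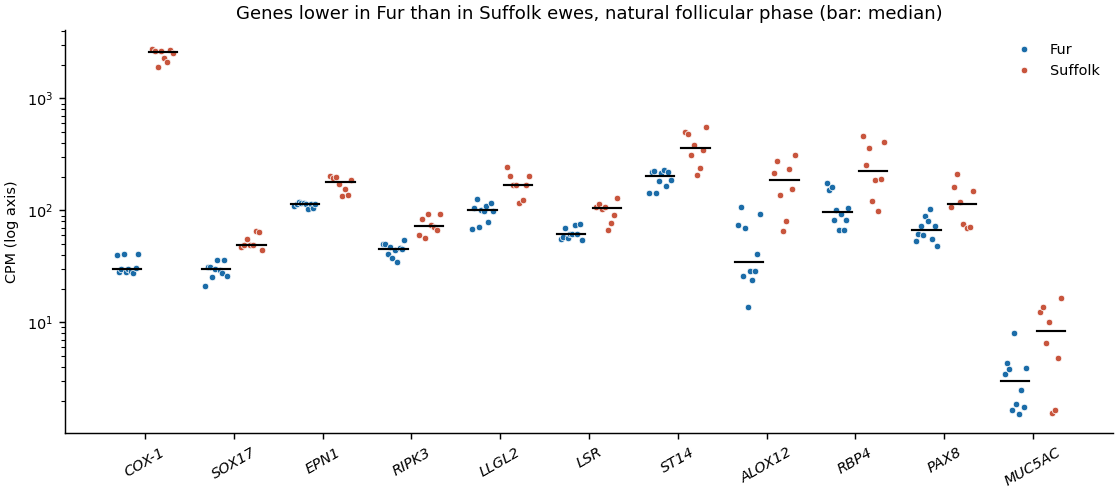
CPM (log axis) of 11 genes lower in Fur in each of the 10 Fur (blue) and 8 Suffolk (red) ewes of the natural follicular phase, with a bar at each median. COX-1, SOX17, EPN1 and RIPK3 show no overlap between breeds, while MUC5AC runs from 1.51 to 8.09 in Fur and from 1.54 to 16.4 in Suffolk.

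Epithelial genes were lower in Fur where they passed. Of 34 genes of epithelial junctions and differentiation, 0 were higher and 10 lower (29.4%), with a median of -0.41, where 4.62% of all genes tested and 19.2% of the named genes were lower. The other lists with lower expression hold named genes too, and their shares are read beside the same values. LSR, of tricellular junctions, had 54.7 to 74.9 CPM in Fur and 67.0 to 128 in Suffolk (-0.66, SE 0.11, adjusted p = 0.00274). LLGL2, a polarity protein, had 68.4 to 126 against 116 to 242 CPM (-0.84, SE 0.15, adjusted p = 0.00292), and ST14, the epithelial protease matriptase, 142 to 228 against 208 to 551 (-0.97, SE 0.17, adjusted p = 0.00301). In each, at least 6 of 8 Suffolk ewes lay above every Fur ewe. The other 7 were OVOL2 (-1.15), CLDN3 (-1.11), CLDN4 (-0.69), AP1M2 (-0.65), DSG2 (-0.61), CDH1 (-0.62) and PARD6B (-0.61). The count was 5 without Suffolk replicate 9 and 6 without replicate 3.

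Of 22 genes of mucus and secretory epithelium, 0 were higher and 8 lower (36.4%), with a median of -0.78. The secretory cell transcription factor PAX8 had 47.8 to 103 CPM in Fur and 69.7 to 211 in Suffolk (-0.80, SE 0.21, adjusted p = 0.0166). SCGB2A1, a secretoglobin of glandular secretions, had 0.634 to 7.99 CPM in Fur and 1.88 to 19.0 in Suffolk (-1.85, SE 0.56, adjusted p = 0.0287). MUC5AC, a gel-forming mucin, had 1.51 to 8.09 CPM (median 2.98) in Fur and 1.54 to 16.4 (median 8.29) in Suffolk, where replicates 6 and 7 were the lowest with 1.54 and 1.66 (-1.35, SE 0.44, adjusted p = 0.0375). Its call was lost without 10 of the 18 ewes in turn, and its interaction term of 2.59 against the -3.96 of the synchronised phase did not pass (adjusted p = 0.153). The phosphate transporter SLC34A2 (-0.64), the inhibitor CST6 (-1.79), the membrane mucins MUC16 (-1.15) and MUC1 (-0.98) and the chloride channel CFTR (-0.98) were the others. Leaving out 1 ewe at a time gave 1 (Suffolk replicate 3), 2 (Suffolk replicate 2 or 9) to 14 (Suffolk replicate 4) DEGs of this list, and 3 to 5 without Fur replicate 1, 4, 5, 6, 7 or 8. With the smooth muscle term in the fit, 0 genes of either epithelial list were DEGs. The summed epithelial markers had a median of 2234 CPM in Fur and 3860 in Suffolk, but the breeds overlapped. Suffolk replicates 4, 6 and 7, at 2019, 1772 and 2614 CPM, lay inside the Fur range of 1509 to 2950. The part of tissue composition in these differences was not tested.

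Signalling and patterning genes of the reproductive tract that passed were lower in Fur. Of 22 WNT and NOTCH genes, 0 were higher and 8 lower (36.4%, median -0.62). KREMEN1, a receptor for DKK inhibitors, had 109 to 192 CPM in Fur and 138 to 331 in Suffolk (-0.77, SE 0.17, adjusted p = 0.00747). The receptor FZD5 (-1.26, adjusted p = 0.0164) and the ligand WNT4 (-1.71, adjusted p = 0.0183) were lower too, and WNT4 ran from 0.898 to 4.07 CPM in Fur and from 0.807 to 23.6 in Suffolk, with Suffolk replicate 9 the highest. WNT6, WNT10B and WNT2, ligands, and AXIN2 and NOTUM, feedback inhibitors, made up the 8. Of 25 developmental transcription factors, 0 were higher and 8 lower (32.0%, median -0.59), led by SOX17, TWIST2 (-0.77, adjusted p = 0.0147) and PAX8. DLX5, EYA2, MSX1 and PAX2 were also among them. With the smooth muscle term, 0 WNT and NOTCH genes and 1 transcription factor passed. Without Suffolk replicates 9, 2, 3 and 7 in turn, 3, 5, 5 and 13 WNT and NOTCH genes were lower, and 4 to 5 transcription factors without Suffolk replicate 3 or 4 or Fur replicate 1, 4 or 8.

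Steroid, retinoid and prostaglandin genes held 8 lower and 0 higher of 28 tested (28.6%, median -0.61). ALOX12, a lipoxygenase of arachidonic acid, had 13.7 to 108 CPM (median 34.9) in Fur and 66.1 to 313 (median 186) in Suffolk, with 6 Suffolk ewes above every Fur ewe (-1.87, SE 0.39, adjusted p = 0.00611). CYP26B1, which breaks down retinoic acid, had -0.87 (adjusted p = 0.00938), and PAQR5, a membrane progestin receptor, -0.96 (adjusted p = 0.00946). OXTR, the oxytocin receptor, was singled out after its values were seen, because the Suffolk ewes split. Suffolk replicates 3, 4 and 9 had 186, 198 and 207 CPM and replicate 2 had 46.7, while replicates 5, 6, 7 and 8 had 0.436 to 4.97, within or below the Fur range of 0.634 to 25.2. The log2 fold change of OXTR was -3.65 (SE 0.99, adjusted p = 0.0183). IHH (-2.29), the retinol carrier receptor STRA6 (-2.04), SLCO2A1 (-0.78) and WNT4 were the other DEGs of this list. In the fit with the smooth muscle term, 0 genes of the list were DEGs.

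ELOVL2 and PAPPA showed a like split of the Suffolk ewes. ELOVL2, which elongates polyunsaturated fatty acids, had 147 CPM in Suffolk replicate 4 and 15.5, 39.1 and 38.9 in replicates 2, 3 and 9, but 0.0757 to 1.02 in the others, and 0.168 to 11.995 in Fur (-4.20, SE 1.18, adjusted p = 0.0214). PAPPA, a protease that frees insulin-like growth factors from their binding proteins, had 6.18 to 26.4 CPM in those 4 Suffolk ewes and 0.530 to 1.68 in the others, against 0.222 to 2.65 in Fur (-3.24, SE 0.74, adjusted p = 0.00871). These 4 ewes had 66.6 to 830 summed CPM of the muscle markers, and so did Suffolk replicate 5, at 97.6 CPM, which was low for both genes. In the fit with the smooth muscle term the values were 0.86 (adjusted p = 0.721) for ELOVL2 and 0.05 (adjusted p = 0.983) for PAPPA.

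The extracellular matrix list had 1 DEG higher (PI16) and 12 lower (30%) of 40 tested, with a median of -0.54. MMP15, a membrane-bound matrix metalloproteinase, had 33.1 to 49.0 CPM in Fur and 35.5 to 117 in Suffolk, with 7 Suffolk ewes above every Fur ewe (-0.78, SE 0.17, adjusted p = 0.00716). THBS2, an adhesive matrix glycoprotein that has 3 identifiers in the files, was lower at all 3, from -1.58 to -1.29. Since reads of near-identical copies may be split, single copies are uncertain. Of 17 acute phase, complement and coagulation identifiers, 0 were higher and 5 lower (29.4%, median -0.72). SAA1, an acute phase apolipoprotein, was lower at ENSOARG00000009847 (0.536 to 8.70 CPM in Fur, 1.61 to 140 in Suffolk, -2.88, SE 0.69, adjusted p = 0.0104) and at ENSOARG00000009865 (-2.14, adjusted p = 0.0394). RBP4, the plasma carrier of retinol, had 67.1 to 177 CPM in Fur and 99.4 to 464 in Suffolk (-1.26, SE 0.29, adjusted p = 0.00871), and coagulation factor F5 reached 247 CPM in Suffolk replicate 4 (-1.77, SE 0.49, adjusted p = 0.020). No gene of these 2 lists passed with the smooth muscle term, and the matrix count fell to 3, 4 and 7 without Suffolk replicates 9, 3 and 2. The acute phase count was 3 without Suffolk replicate 2, 3 or 9 or Fur replicate 1, 5, 6 or 9.

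Lipid genes had 1 higher (UCP2) and 4 lower of 28 tested (median -0.25), the latter 1 without Suffolk replicate 3 or 9 and 2 without Suffolk replicate 2 or Fur replicate 7. FADS6, of the fatty acid desaturase family, had 3.97 to 8.29 CPM in Fur and 3.93 to 41.3 in Suffolk (-1.30, SE 0.37, adjusted p = 0.0234). In 5 of 29 lipid identifiers the interaction was called, namely UCP2, CPT1A (1.55), the gatekeeper of mitochondrial fatty acid oxidation, ABCA1 (1.32), APOE (0.71) and HACL1 (0.82). Of all genes tested, 1.73% were called in that direction, and of 51 lysosomal identifiers 7 were. Most symbols were chosen as lower in Fur at the synchronised phase, which favours terms of this sign. Of 51 lysosomal identifiers, 0 were higher and 4 lower (7.84%, median -0.25), namely NPC1 (-0.74), PLBD2 (-0.84), LGMN (-0.59) and ATP6V0D2 (-1.87). The lower count was 2 without Suffolk replicate 9 or Fur replicate 1, 3, 5 or 8. At the synchronised phase 24 were lower, beside 763 of the 1309 named genes.

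Few lymphoid genes passed the test. Of 30 lymphocyte and antigen presenting cell genes, 0 were higher and 2 lower (6.67%, median -0.48). The lower count was 1 without Suffolk replicate 2 or 3 and 4 without Suffolk replicate 6. At the synchronised phase 21 were lower, beside 763 of the 1309 named genes, whose symbols were largely chosen as lower in Fur there. In no gene of this list was the interaction called. TNFRSF13B, a receptor of B cells, had 2.88 to 7.65 CPM in Fur and 5.52 to 12.3 in Suffolk (-0.72, SE 0.20, adjusted p = 0.0198). FLT3, a receptor of dendritic cell progenitors, had 0.586 to 1.82 CPM in Fur, and Suffolk replicates 4, 5 and 7 had 19.7, 7.80 and 7.34 while the other 5 lay between 0.439 and 1.31 (-2.15, SE 0.61, adjusted p = 0.0224). Of 7 blood vessel and red cell genes tested, SOX17 alone was a DEG.

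Of 5 neutrophil-associated genes tested, 1 was higher (20%) and 2 were lower (40%), beside 1.38% and 19.2% of the named genes. CD177, a neutrophil surface glycoprotein, had 2.23 to 52.3 CPM (median 9.24) in Fur and 0.0471 to 12.3 (median 2.19) in Suffolk, and 5 Fur ewes lay above every Suffolk ewe (2.44, SE 0.75, adjusted p = 0.0315). At the synchronised phase the value was -2.0 (adjusted p = 0.113), with an interaction term of 4.40 (adjusted p = 0.0297), which did not pass with the smooth muscle term (adjusted p = 0.0599). AQP9, a water and glycerol channel, went the other way, with 0.322 to 3.56 CPM in Fur and 0.329 to 14.1 in Suffolk (-1.71, SE 0.57, adjusted p = 0.0415), as did VNN1, a pantetheinase (-2.36, SE 0.81, adjusted p = 0.0467). The calls were lost without 5, 11 and 12 of the 18 ewes in turn. The summed markers CD177, CXCR2 and PADI4 overlapped, at 18.7 to 107 CPM in Fur and 4.24 to 186 in Suffolk.

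**Figure D5:**
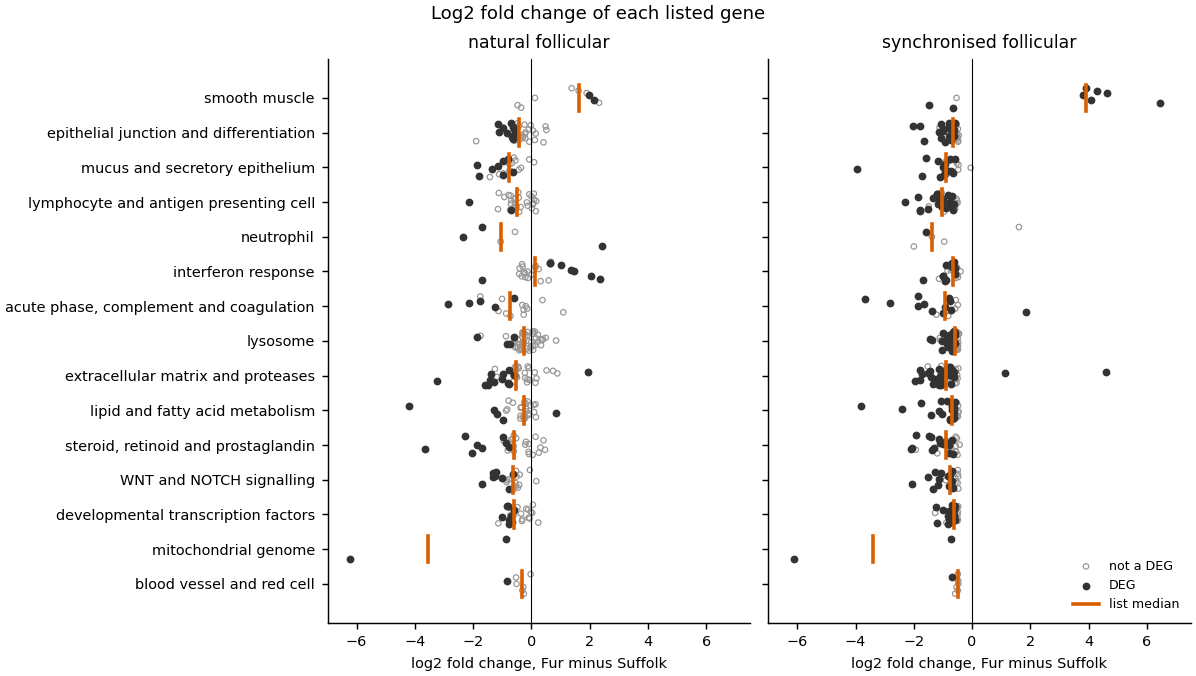
Log2 fold change (Fur minus Suffolk) of each tested gene of 15 lists at the natural (left) and synchronised (right) follicular phase, with DEGs filled, other genes open and an orange bar at each list's median. The interferon median is 0.14 on the left and -0.67 on the right, and the smooth muscle median 1.62 and 3.93.

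Over all genes, 539 DEGs were shared with the synchronised follicular phase on the same genes, 39.7% of the 1358 natural and 28.3% of the 1906 synchronised DEGs. Of these, 518 had the same and 21 the opposite direction. At the luteal phase 943 (6.5%) were higher and 1044 (7.2%) lower in Fur, and 344 genes were DEGs in the same direction in all 3 states. Of the 21 with opposite directions, the 6 that were higher in Fur at the natural and lower at the synchronised phase included ADH6, BTBD11 and the interferon response genes DHX58, ISG15 and ZBP1, and none of the 15 with the reverse pattern had a symbol. Besides the interferon genes, the smallest interaction p among named genes larger at the natural phase was that of BSDC1 (0.47, adjusted p = 0.00338), which had medians of 46.6 CPM in both breeds at the natural phase and -0.48 at the synchronised phase. SERPINF2 (-1.01, SE 0.82, adjusted p = 0.390) and ATP8A2 (-0.84, SE 0.53, adjusted p = 0.270), which the study lists among its top genes at the synchronised phase, did not pass at the natural phase, and their interaction terms (2.69 and 1.59) did not pass either.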

How the data were processed

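RNA of post mortem cervix was sequenced from stranded, poly(A)-selected libraries. According to the study's methods the reads were aligned to Oar_v3.1 with STAR and uniquely mapped pairs were counted per protein-coding gene with featureCounts; the submitters' processing notes give STAR 2.6.1b and Subread 1.6.3. Whether the counting used strand is not stated, so overlapping and antisense genes cannot be told apart. The deposited files hold the authors' raw counts per gene, 1 file per library, with 27054 Ensembl identifiers. Symbols were taken from the study's supplementary tables and matched 1352 of them.

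Libraries were grouped by their labels. The filter kept genes that reached 1 CPM in 8 or more of the 18 ewes, and these entered edgeR 4.0.16 (R 4.3.3, TMM, quasi-likelihood F test, Benjamini-Hochberg). The study used DESeq2, which was run here as an alternative (version 1.42.0). The interaction fit used 37 ewes, and log2 CPM used a prior count of 2. Other fits changed the scaling, the test, the filter on low counts, the samples and the covariates. The scripts were tested on simulated data. No pair of libraries of a breed agreed within sampling noise (lowest chi-square per degree of freedom 34.5 over 73 pairs), so each counted as 1 replicate. The smooth muscle term averages ACTG2 and DES (log2 CPM).

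The libraries, lists and rules were chosen with earlier results of these data known. Named genes were, in each direction, the 5 most significant DEGs with a symbol, the study's top genes for this pair of breeds with PTGS1 and the mitochondrial genes, up to 3 DEGs of each list in each direction, the 3 named genes of smallest interaction p in each direction and 2 unnamed identifiers in each direction. A few genes that meet these rules are not reported here. Further DEGs were named to fill in a count, after their values were seen. The interaction fits with the smooth muscle term and without single ewes were also added after seeing the data.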

Additional observations from a re-analysis of the deposited data

Results flagged for a closer look

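Among 122 groups of values (61 named genes in each breed), 28 held 1 ewe far from the rest of its breed, and each of these was the highest ewe. The limit used is passed by about 1 in 20 groups of normally distributed values. CPM on the plain scale, mostly of genes picked as DEGs, need not meet that condition, so no excess over this rate is claimed. Of the Suffolk ewes, replicate 9 stood above the others for ENSOARG00000000264 (16.7 CPM), PLBD2 (242 CPM), SAA1 (140 CPM, ENSOARG00000009847), SERPINF2 (36.5 CPM), VNN1 (163 CPM) and WNT4 (23.6 CPM). Suffolk replicate 4 did so for ELOVL2 (147 CPM), F5 (247 CPM), FLT3 (19.7 CPM) and FZD5 (21.3 CPM), and Suffolk replicate 7 for ACTG2 (1878 CPM), ATP6V0D2 (19.1 CPM), PCP4 (25.8 CPM) and PNCK (4.16 CPM). Suffolk replicate 2 had the highest ACTC1 (7.49 CPM) and AQP9 (14.1 CPM), and Suffolk replicate 5 the highest CD177 (12.3 CPM) and OAS1 (14.5 CPM). Of the Fur ewes, replicate 3 stood above the others for ATP8A2 (26.6 CPM), ELOVL2 (11.995 CPM), SERPINF2 (19.4 CPM) and VNN1 (40.8 CPM), and replicate 2 for CYP26B1 (26.9 CPM) and THBS2 (10.9 CPM). Single Fur ewes were far above the rest for BRINP3 (replicate 1, 15.5 CPM), MUC5AC (replicate 5, 8.09 CPM), PTGS1 (replicate 6, 38.4 CPM) and MX1 (replicate 9, 499 CPM).

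For 13 named genes the difference between the breeds itself differed between the natural and the synchronised follicular phase in the edgeR interaction test (adjusted p under 0.05). Fur minus Suffolk was larger at the natural phase for OAS1 (3.49 on the log2 scale), ISG15 (3.09), OAS2 (2.33), MX1 (2.08), ZC3HAV1 (0.82), CD177 (4.40), UCP2 (1.33), BSDC1 (0.47) and ENSOARG00000020756 (0.91). It was smaller at the natural phase for PNCK (-4.51), PCP4 (-4.12), PI16 (-2.65) and ENSOARG00000015666 (-0.69). For PNCK all 11 synchronised Suffolk libraries held 3 or fewer counts, so its term is a fitted value that depends on the prior count and is no bound. Without 1 of the 37 ewes in turn, the call was lost in 15 fits for ENSOARG00000015666, in 7 for PI16, in 2 for CD177 (without Suffolk replicate 7 of the natural or replicate 6 of the synchronised phase) and in 1 for PCP4. PI16 (adjusted p = 0.124) and CD177 (adjusted p = 0.0599) did not pass with the smooth muscle term. Most symbols were chosen on the synchronised libraries as genes lower in Fur, which favours a larger value at the natural phase. The ewes of the 2 phases were different animals, and their collection dates are not given in the sources used here.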

How the results depend on the processing

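The count of 1358 DEGs stayed between 946 and 1680 under DESeq2 size factors, both DESeq2 tests, 3 other filters on low counts, all 4 breeds in one fit and the replicate block. It was 26 with the smooth muscle term, 2911 without a fold change threshold and 16 under edgeR's glmTreat, which tests against a fold of 1.5 rather than filtering on it. Leaving out single ewes gave 829 to 2136 DEGs, 509 to 1743 interaction calls and 20.2% to 27.3% of variance between breeds (highest exact permutation p = 0.000535). The interaction count fell to 509 without Suffolk replicate 7 and rose to 1743, 1568 and 1543 without Suffolk replicates 5 and 6 and Fur replicate 2 of the natural phase. Replicate numbers are shared by the breeds but did not pair the ewes: correlations of deviations were -0.22 to 0.29 over 8 numbers, over 0.1 in 4, and 1 of 8 Suffolk ewes was closest to its own number. With the replicate block, in which Fur replicates 1 and 10 have no partner and do not bear on the breed term, DEGs were 946 (599 higher and 347 lower) and interaction calls 265. Signs turned for values that were not called in the same fit: with the smooth muscle term ACTC1 (-0.17), ATP8A2 (0.85), BSDC1 (0.0483), ELOVL2 (0.86), F5 (0.26), FADS6 (0.30), MUC5AC (0.14), PAPPA (0.0474) and SERPINF2 (1.89), with the block BSDC1 (0.0207), under the DESeq2 likelihood ratio test SERPINF2 (0.47), and without single ewes BSDC1 (range -0.0367 to 0.00699) and SERPINF2 (range -2.04 to 0.43). Of the 61 named genes, 41 no longer had an adjusted p under 0.05 with the smooth muscle term and 25 with the block, besides those that changed sign; ACTG2, which is part of that term, is among the 41. The cause of these changes was not tested. Genes whose libraries held 3 or fewer counts (among them PNCK, PCP4, BRINP3 and ELOVL2) are limited by depth.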
